A study of Homo sapiens with 5 samples.

Results

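The enzymes that make asparagine, proline, glutamate, glutamine, alanine, aspartate and cysteine were examined in ribosome footprint counts of HAP1 cells. They were ASNS, PYCR1, ALDH18A1, GOT1, GPT2, GLUL, CTH and CBS, and were chosen by symbol as enzymes of non-essential amino acid synthesis outside the serine and glycine pathway. All 8 had a row among the 13638 rows of the deposited count table, and all 8 were among the 11205 genes that passed the filter on low counts. HAP1 is an adherent, near-haploid human line that traces back to a chronic myeloid leukaemia. There were 3 libraries from cells labelled ZCCHC4 knockout and 2 from cells labelled wild type. ZCCHC4 is the methyltransferase that, per the series title, places N6-methyladenosine on 28S ribosomal RNA. The labels give no clone, passage or batch, and name no treatment of the cells other than the cycloheximide in the lysis buffer and gradient, used for all 5 libraries.

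A footprint is the piece of mRNA that a ribosome protects from nuclease, so a gene's footprint count follows both how much of its mRNA is present and how densely ribosomes occupy it. These contributions cannot be told apart here, because no matched RNA libraries were used. Nor can counts from pooled cells tell fewer cells with a gene's RNA from less of that RNA per cell. Levels are given as CPM, counts relative to a library total scaled by TMM (the trimmed mean of M values), and every fold change is knockout over wild type. Totals were 16940732 to 31557573 counts in the knockout libraries, against 4887380 and 5302160 in the wild-type libraries, so depth moved with genotype. ZCCHC4 itself had 3.85, 3.41 and 4.98 CPM in the knockout libraries, against 16.04 and 13.25 CPM in the wild-type libraries. The wild-type libraries were nearly alike (chi-square per degree of freedom 1.14). Knockout replicate 2 stood apart from knockout replicates 1 and 3 (27.7 and 24.6, where replicates 1 and 3 gave 2.97 against each other). Calls of the 8 enzymes that turn on it are given also without it, and those of other genes only in part. Nothing in the labels says that libraries came from separate cultures, so p-values here speak of library-to-library spread alone, and that may be technical. Of 8 blood cell markers, CD34 and CD33 were the 2 with a row, and their summed level was at most 0.0619 CPM in the knockout libraries and at most 0.373 CPM in the wild-type libraries. The 4 markers of attached, mesenchymal-type cells were all present and summed to 1158 to 1167 CPM in the knockout libraries, against 738 to 760.4 CPM in the wild-type libraries. Of these VIM (511 CPM in the knockout, 132 CPM in wild type), ITGB1 (429 CPM in the knockout, 323 CPM in wild type) and CDH2 (153 CPM in the knockout, 130.2 CPM in wild type) rose. FN1 fell (68.5 CPM in the knockout, 164 CPM in wild type). Of 4 epithelial markers, 3 had a row and 2 were tested. KRT18 did not pass (138 CPM in the knockout, 148 CPM in wild type). EPCAM rose at a low level (4.72 CPM in the knockout, 1.35 CPM in wild type). Of the genes listed as fusion partners, BCR fell (4.44 CPM in the knockout, 6.83 CPM in wild type) and ABL1 did not pass. The part of these markers in the results was not tested.

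Of these enzymes, ASNS takes nitrogen from glutamine, and the transaminases GOT1 and GPT2 pass it between glutamate and aspartate or alanine. When amino acids run short, the kinase GCN2 phosphorylates the initiation factor eIF2, general initiation slows, and the transcription factor ATF4 is made and switches on many genes of amino acid synthesis, uptake and tRNA charging. ATF4 acts with C/EBP proteins on a composite site known as the C/EBP-ATF response element. The asparagine synthetase gene is the textbook example of a human gene controlled through such an element.

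The element was looked for as the letters TGATGNAA on either strand (TTNCATCA on the other) in the 250 bases before each start site of the RefSeq promoter table (GRCh38.p14). That table held windows for 6 of the 8 genes, with PYCR1 and GPT2 not among them. ASNS and GOT1 each had 1 match, and the windows of ALDH18A1, GLUL, CTH and CBS had none. Of the 27305 genes in the promoter table, 3.89% had a match. The 30 bases around each match are shown because ASNS had the largest fall of the 8 and GOT1 was the other gene with the element, with the matching letters in capitals and the rest in lower case. The ASNS stretch lies on the minus strand of GRCh38.p14 at chr7:97872458-97872487, with the match at bases -68 to -61 from the RefSeq start, and the GOT1 stretch on the minus strand at chr10:99430804-99430833, with the match at -198 to -191 and in the reverse orientation. Both stretches also lie within exons of the longer GENCODE transcripts that the count table names, so the start site differs between the annotations. The 100 bases before the RefSeq start of ALDH18A1 (minus strand, chr10:95656712-95656811) are shown too, as those of the only one of the 8 genes that was higher in the knockout. This stretch is not free of similar letters: it holds tgacgtaa, with a C where the searched letters have a T. CTH and CBS were lower in the knockout and had no match either. Whether a match goes with the direction of a gene was not tested.
ASNS: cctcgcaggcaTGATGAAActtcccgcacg
GOT1: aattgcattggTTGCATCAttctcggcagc
ALDH18A1: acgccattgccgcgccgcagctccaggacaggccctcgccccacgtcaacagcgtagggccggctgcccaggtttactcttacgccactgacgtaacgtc
A match describes letters in a window and does not show that a factor binds there, and a window without a match says only that these letters are not in it.

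Across the 8 enzymes, 6 fell in the knockout libraries, 1 rose and 1 did not pass (edgeR quasi-likelihood test, adjusted p under 0.05 over all genes). Those that fell were ASNS, PYCR1, CTH, GPT2, GOT1 and CBS, the gene that rose was ALDH18A1, and GLUL did not pass. Of the 11205 genes tested, 29.8% were called lower, 30.2% higher and 60.0% in either direction. Only ASNS and PYCR1 fell by at least 2-fold, which 13.1% of all genes tested did. The median log2 fold change of the 8 was -0.59, beside 0.02 for all genes tested. In all 8 genes the knockout and wild-type libraries did not overlap, with the knockout lower in 7 and higher in 1; among all genes tested, the knockout was entirely lower in 37.9% and entirely higher in 38.5%.

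**Figure D1:**
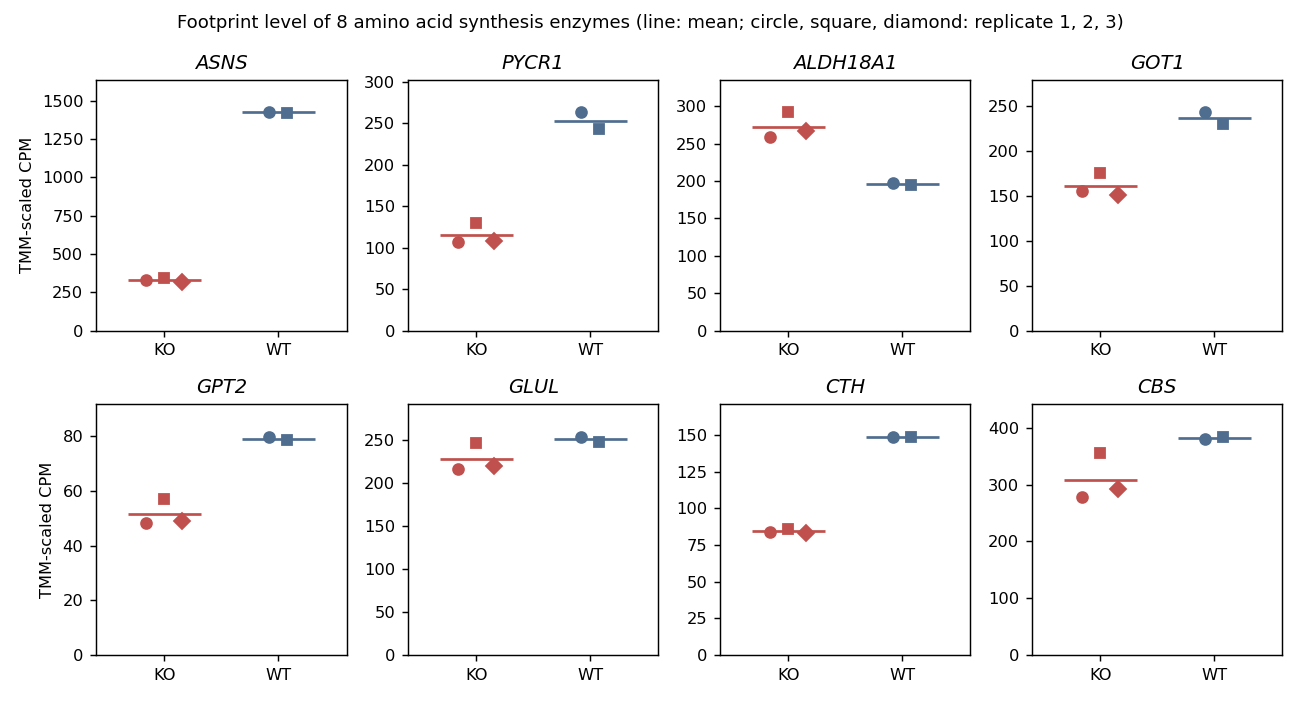
TMM-scaled CPM of each enzyme gene in the 3 knockout (KO) and 2 wild-type (WT) libraries, each panel on its own linear axis from 0, with points for libraries and lines for group means. The knockout points lie below the wild-type points for 7 genes, by most for ASNS (330 against 1423 CPM on average), and above them for ALDH18A1 (273 against 196 CPM).

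Asparagine synthetase, which makes asparagine from aspartate with glutamine as the nitrogen donor, had the largest difference. ASNS (ENST00000175506, GRCh38 chromosome 7, 97852118 to 97872542, minus strand, 14 exons) had 331, 340.5 and 317 CPM in the knockout libraries, against 1423 CPM in each wild-type library. These levels rested on 9043, 5498 and 9373 counts in the knockout and 8252 and 7622 counts in wild type. The knockout libraries lay close together and far below the wild type. Its log2 fold change was -2.11 ± 0.06 (SE; adjusted p = 4.50e-08), which left 23.2% of the wild-type level, and 4.95% of all genes tested had a lower log2 fold change. Its coding sequence lies wholly within AC079781.5, an overlapping transcript on the same strand that has no row in the table, and 11.7% of its windows of 28 bases also occur in the pseudogene ASNSP1.

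The fall of ASNS made up most of the change in the summed level of the 8 genes. The sum was 1482, 1683 and 1488 CPM in the knockout libraries, against 2990 and 2951 CPM in the wild-type libraries, or 52.2% of the wild-type mean. ASNS accounted for 77.0% of the difference between the group means. Without ASNS, the other 7 genes summed to 1221 ± 105 CPM in the knockout and 1548 ± 27.4 CPM in wild type (SD, n = 3 and n = 2), which was 78.9% of the wild-type level.

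The make-up of these counts shifted within each library, a quantity that needs no scaling between libraries. ASNS took 22.4% (exact 95% binomial interval 22.0 to 22.8%), 20.2% (19.8 to 20.7%) and 21.3% (20.9 to 21.7%) of the counts of the 8 genes in the knockout libraries. It took 47.6% (46.8 to 48.3%) and 48.2% (47.4 to 49.0%) in the wild-type libraries. The intervals of the genotypes lay far apart, and they cover counting error only, since amplified footprints are not independent molecules. Because the shares add up to the whole, a smaller share of ASNS leaves larger shares for others, so they do not give the direction of a gene's level. ALDH18A1, whose level rose, took 17.5%, 17.3% and 17.9% of the counts in the knockout libraries and 6.60% in each wild-type library. CBS, whose level fell, also took a larger share, 18.8%, 21.1% and 19.7% in the knockout libraries and 12.7% and 13.0% in the wild-type libraries. The share of GLUL was 14.6%, 14.7% and 14.8% in the knockout libraries and 8.49% and 8.41% in the wild-type libraries. GOT1, whose level fell, had 10.5%, 10.4% and 10.1% in the knockout libraries and 8.14% and 7.80% in the wild-type libraries, so its share too was larger in the knockout.

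**Figure D2:**
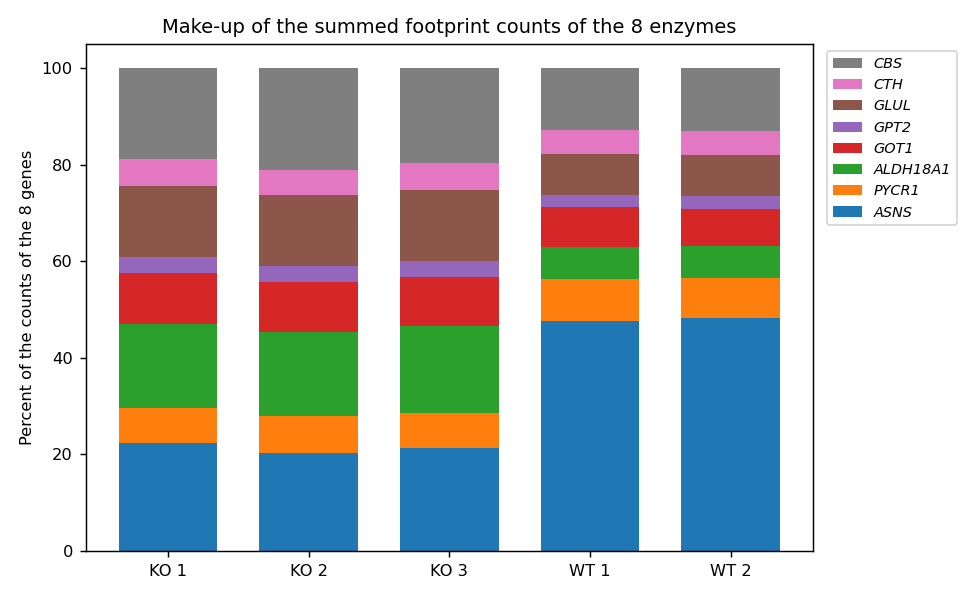
Stacked bars of the percent of the summed footprint counts of the 8 genes that each gene took, for the 3 knockout libraries and the 2 wild-type libraries. The ASNS segment spans 20.2 to 22.4% in the knockout libraries and 47.6 to 48.2% in the wild-type libraries, while the ALDH18A1 segment is wider in the knockout.

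The enzymes of proline synthesis moved in opposite directions. ALDH18A1 encodes the mitochondrial enzyme that turns glutamate into pyrroline-5-carboxylate, the shared precursor of proline and ornithine, and PYCR1 encodes a mitochondrial reductase that makes proline from it. PYCR1 (ENST00000619204, chromosome 17, 81932384 to 81937328, minus strand, 8 exons) had 107, 129 and 109 CPM in the knockout libraries, against 263 and 243 CPM in the wild-type libraries. It fell to 45.4% of the wild-type level (log2 fold change -1.14 ± 0.10, adjusted p = 1.62e-05). ALDH18A1 (ENST00000371224, chromosome 10, 95605929 to 95656706, minus strand, 18 exons) had 259, 292 and 267 CPM in the knockout libraries and 197 and 195 CPM in the wild-type libraries. It rose 1.39-fold (log2 fold change 0.47 ± 0.08, adjusted p = 7.76e-04). The smallest knockout value of ALDH18A1 was above both wild-type values, and the largest knockout value of PYCR1 was below both. Among all genes tested, the knockout was entirely higher in 38.5% and entirely lower in 37.9%. With library totals in place of TMM, which moves the median over all tested genes to -0.20, ALDH18A1 was at 0.26 (adjusted p = 0.0217).

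The log2 ratio of PYCR1 to ALDH18A1 counts was -1.28, -1.17 and -1.30 in the knockout libraries, against 0.42 and 0.32 in the wild-type libraries, a difference of -1.62. Such count ratios within a library are not corrected for length, so only their difference between genotypes is read. Of the 6 pairs compared, 5 were separated between genotypes, among them this one and PYCR1 to PRODH, which oxidizes proline (1.21, 0.99 and 1.18 in the knockout libraries, against 3.50 and 3.27 in the wild-type libraries). An exact two-sided permutation test gave p = 0.1 for each of these 5, the smallest value that 3 libraries against 2 allow, or 0.12 after adjustment over the 6 pairs, so no pair could pass 0.05. Separation is common in these libraries: among all genes tested, the knockout was entirely lower in 37.9% and entirely higher in 38.5%. No such share was computed over other pairs, so the count is not read as particular to these.

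**Figure D3:**
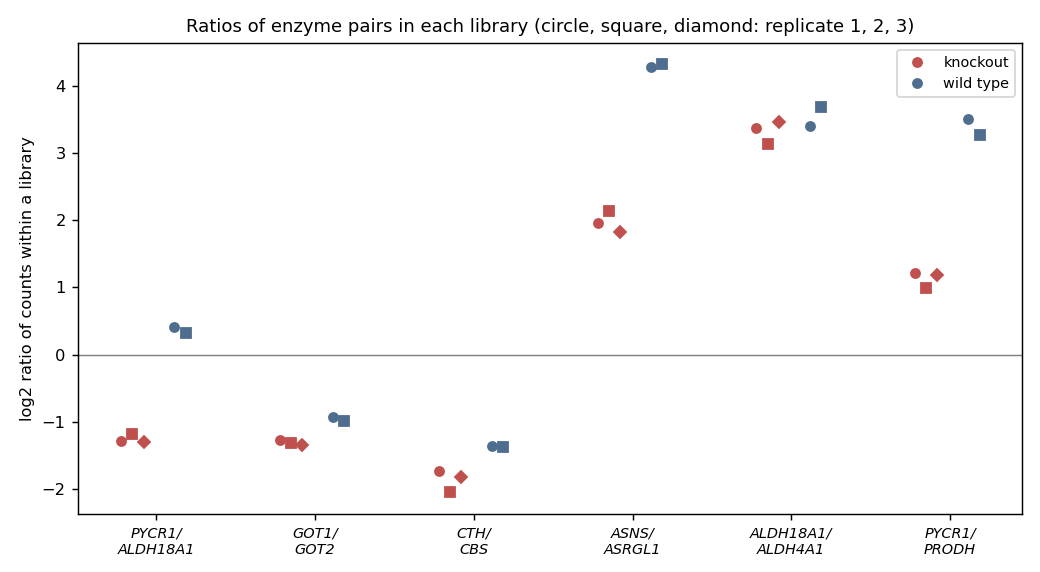
Log2 ratio of the footprint counts of a pair of genes within each library, not corrected for gene length, with knockout libraries left of wild-type libraries for each pair. The genotypes are separated in 5 of the 6 pairs, by most for ASNS/ASRGL1 (1.97 against 4.30 on average), and overlap for ALDH18A1/ALDH4A1. No share of separated pairs was computed over other genes.

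The enzymes that break proline down or link it to ornithine were higher in the knockout. PRODH averaged 53.0 ± 10.4 CPM in the knockout and 24.2 ± 1.36 CPM in wild type (log2 fold change 1.12 ± 0.17, adjusted p = 4.88e-04). OAT, which interconverts ornithine and the proline precursor, averaged 458 ± 12.6 CPM in the knockout and 266 ± 4.63 CPM in wild type (0.78 ± 0.07, adjusted p = 1.58e-05). ALDH4A1, which carries the breakdown on to glutamate, and the mitochondrial arginase ARG2 had log2 fold changes of 0.69 ± 0.18 and 0.45 ± 0.09. These were the 4 genes of proline and ornithine metabolism outside the 8 that are reported here, and all 4 rose, where 30.2% of all genes tested were called higher. The median log2 fold change of these 4 genes was 0.74. With library totals all 4 kept a positive sign, but ALDH4A1 and ARG2 no longer passed (adjusted p = 0.0531 and 0.0526). Of the coding windows of ALDH4A1, 88.1% also occur in another annotated gene that overlaps it, so its counts are uncertain.

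**Figure D4:**
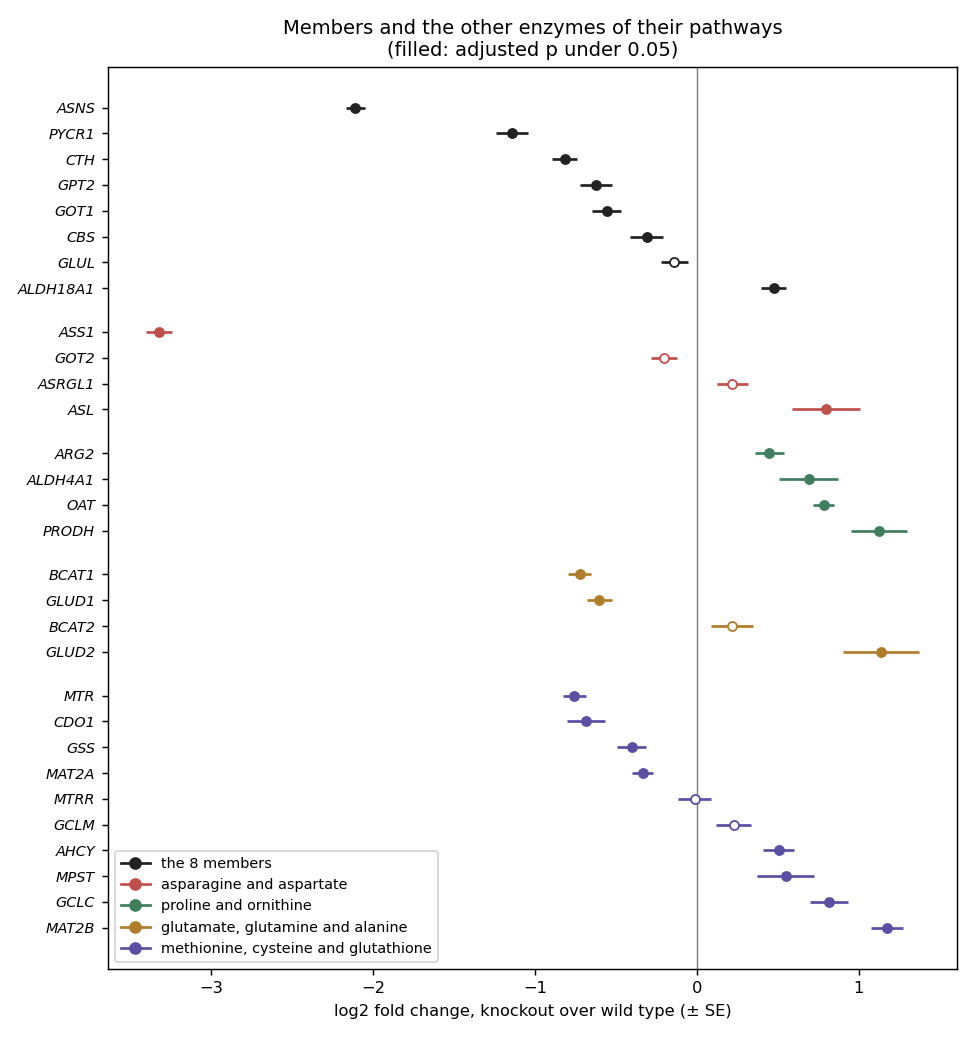
Log2 fold change of knockout over wild type with its standard error for the 8 enzymes (black) and for the other enzymes of their pathways reported here, grouped by pathway, with filled points for adjusted p under 0.05. The 4 filled points of proline and ornithine metabolism lie to the right of 0, whereas 6 of the 7 filled black points lie to the left.

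GOT1 and GPT2, transaminases that join glutamate to aspartate and alanine, were lower. GOT1 encodes the cytosolic aspartate aminotransferase of the malate-aspartate shuttle (ENST00000370508, chromosome 10, 99396870 to 99431569, minus strand, 9 exons). It had 156, 176 and 151 CPM in the knockout libraries, against 243 and 230.3 CPM in the wild-type libraries. GOT1 fell to 68.0% of the wild-type level (log2 fold change -0.56 ± 0.09, adjusted p = 5.08e-04). GPT2, the mitochondrial alanine aminotransferase (ENST00000340124, chromosome 16, 46884378 to 46931297, plus strand, 12 exons), had 48.4, 57.0 and 49.2 CPM in the knockout libraries, against 79.8 and 78.6 CPM in the wild-type libraries. It fell to 65.1% (-0.62 ± 0.10, adjusted p = 6.52e-04). Neither gene's libraries overlapped between genotypes, where the knockout was entirely lower in 37.9% of all genes tested. Knockout replicate 2 was nearest to the wild type in both genes. GOT2, the mitochondrial counterpart of GOT1, averaged 398 ± 32.9 CPM in the knockout and 457 ± 3.07 CPM in wild type and did not pass (-0.20 ± 0.08, adjusted p = 0.0530). This call was borderline, as GOT2 passed as lower with upper-quartile scaling (-0.26, adjusted p = 0.0262) and library totals (-0.42, adjusted p = 0.00208). Without knockout replicate 2 GOT2 was at -0.27 and passed (adjusted p = 9.89e-10), in a fit that lacks most of the spread among knockout libraries. The log2 ratio of GOT1 to GOT2 counts was -1.30 ± 0.03 in the knockout and -0.95 ± 0.05 in wild type (SD, n = 3 and n = 2).

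Of the other genes that use asparagine or aspartate, ASS1 had the largest change. ASS1, argininosuccinate synthase, which joins aspartate to citrulline on the way to arginine, averaged 50.9 ± 3.35 CPM in the knockout and 508 ± 7.70 CPM in wild type (log2 fold change -3.32 ± 0.08, adjusted p = 2.32e-08). ASL, the next enzyme on that route, rose at a low level, with 11.01 ± 1.83 CPM in the knockout and 6.27 ± 0.156 CPM in wild type (0.80 ± 0.21, adjusted p = 0.00926). Of their coding windows, 55.2% for ASS1 and 40.4% for ASL also occur in other annotated genes. ASRGL1, an asparaginase that breaks asparagine down, averaged 84.1 ± 6.14 CPM in the knockout and 72.4 ± 1.53 CPM in wild type and did not pass (0.22 ± 0.10, adjusted p = 0.0745). Without knockout replicate 2 ASRGL1 was at 0.27 and passed (adjusted p = 1.56e-04), whereas with library totals it was at -0.0008 (adjusted p = 0.995). The log2 ratio of ASNS to ASRGL1 counts was 1.97 ± 0.16 in the knockout and 4.30 ± 0.03 in wild type, a difference of -2.32, the largest of the 6 pairs.

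Glutamine synthetase differed least. GLUL joins ammonia to glutamate (ENST00000331872, chromosome 1, 182381704 to 182392206, minus strand, 7 exons) and had 217, 247 and 220.0 CPM in the knockout libraries, against 254 and 248 CPM in the wild-type libraries. The knockout values lay just below the wild type, and knockout replicate 2 almost met it. The log2 fold change was -0.14 ± 0.08 and did not pass (adjusted p = 0.169). Without knockout replicate 2 it was -0.20 and passed (adjusted p = 3.92e-05), and with library totals it was -0.36 (adjusted p = 0.00529). The fit without replicate 2 lacks most of the spread among knockout libraries, so its small p-value does not show stronger evidence. Up to 17.0% of its coding windows occur in the pseudogene GLULP4, and 28.8% in any other annotated gene.

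Other genes of glutamate metabolism moved both ways, with 2 lower, 1 higher and 1 not passing among the 4 reported here. Among all genes tested, 29.8% were called lower and 30.2% higher. BCAT1, the cytosolic branched-chain aminotransferase, averaged 254 ± 11.3 CPM in the knockout and 419 ± 15.6 CPM in wild type (log2 fold change -0.72 ± 0.07), while the mitochondrial BCAT2 did not pass (0.21 ± 0.13, adjusted p = 0.182). GLUD1, glutamate dehydrogenase, fell (-0.60 ± 0.08) and its copy GLUD2 rose from few counts (1.14 ± 0.23), and as 58.0% of the coding windows of GLUD1 occur in GLUD2, how reads were split between them is uncertain.

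Both enzymes that pass sulfur from homocysteine to cysteine were lower. CBS, cystathionine beta-synthase, joins homocysteine to serine, and CTH, cystathionine gamma-lyase, releases cysteine from the product. CTH (ENST00000370938, chromosome 1, 70411272 to 70439570, plus strand, 12 exons) had 84.2, 86.1 and 82.9 CPM in the knockout libraries, against 148 and 149 CPM in the wild-type libraries. It fell to 56.8% of the wild-type level (log2 fold change -0.82 ± 0.08, adjusted p = 2.40e-05), with the least spread among knockout libraries of the 8 genes (a coefficient of variation of 1.87%). CBS (ENST00000352178, chromosome 21, 43053191 to 43076378, minus strand, 17 exons) had 278, 355 and 293 CPM in the knockout libraries, against 381 and 384 CPM in the wild-type libraries, with the widest knockout spread of the 8 (13.2%). Its fall to 80.7% (-0.31 ± 0.10, adjusted p = 0.0266) did not pass without knockout replicate 1 or 3 (0.0546 and 0.0576) or with a replicate block (0.0588). Fits without wild-type replicate 1 or 2 leave a single wild-type library and are read for effect size alone, not as passing. In them the log2 fold change of CBS was -0.32 and -0.30. Without knockout replicate 2 it was -0.42 and passed (adjusted p = 1.51e-15). That fit lacks most of the spread among knockout libraries, so its small p-value does not show stronger evidence. Of the coding windows of CBS, 98.3% also occur in CBSL, a near-identical copy on the same chromosome that has no row in the table, so the CBS value may hold reads of either copy.

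The log2 ratio of CTH to CBS counts was -1.73, -2.04 and -1.82 in the knockout libraries, against -1.36 and -1.37 in the wild-type libraries. The fall was therefore larger for CTH than for CBS in every knockout library, by a difference of -0.50 between the group means. Around these enzymes, 4 genes of methionine, cysteine and glutathione metabolism fell, 4 rose and 2 did not pass among the 10 tested. Among all genes tested, 29.8% were called lower and 30.2% higher. MTR, which remakes methionine from homocysteine, and CDO1, which oxidizes cysteine, had log2 fold changes of -0.76 ± 0.07 and -0.69 ± 0.12. MAT2A, which makes S-adenosylmethionine, fell to 418 ± 16.6 CPM in the knockout, against 527 ± 10.5 CPM in wild type (-0.34 ± 0.07), whereas its regulatory subunit MAT2B rose to 112 ± 7.89 CPM, against 49.6 ± 1.28 CPM (1.17 ± 0.10). AHCY, which makes homocysteine, rose (0.51 ± 0.10), as did GCLC, the catalytic subunit of the first enzyme of glutathione synthesis (0.81 ± 0.12), while GSS, which completes glutathione, fell (-0.40 ± 0.09). MPST, which transfers sulfur from a product of cysteine, was the other gene that rose (0.55 ± 0.18), and it did not pass with upper-quartile scaling or library totals.

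Set per length, the order of the 8 genes differed between the genotypes. Footprint levels per length are given as CPM per kilobase of coding sequence. In the knockout libraries GLUL (204 ± 14.9), ASNS (196 ± 6.93) and CBS (187 ± 24.6) led, and their ranges over libraries overlapped. GOT1 (130 ± 10.6 CPM per kilobase), PYCR1 (120.2 ± 13.0) and ALDH18A1 (114 ± 7.16) followed, and their ranges overlapped too, though this order held within each knockout library. CTH (69.5 ± 1.30) and GPT2 (32.8 ± 3.05) were lowest and apart from the rest. In wild type ASNS stood alone at 845 ± 0.167 CPM per kilobase, followed by PYCR1 (265 ± 14.7), CBS (231 ± 1.52), GLUL (224 ± 3.77), GOT1 (191 ± 7.42), CTH (122 ± 0.273), ALDH18A1 (82.2 ± 0.768) and GPT2 (50.5 ± 0.570), with no overlap between neighbours in that order. An SD of 2 libraries can fall below counting error. CBS (230.3 and 232.5) lay close to GLUL (227.0 and 221.7) in the wild-type libraries, so the order of these 2 genes is uncertain. ASNS thus stood apart in wild type and overlapped GLUL and CBS in the knockout.

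Knockout replicate 2 had the highest CPM of the 3 knockout libraries in each of the 8 genes, which was so for 44.0% of all genes tested. For the 7 genes that were lower it lay nearest to the wild type, and for ALDH18A1 farthest from it. Its part in the results was measured by leaving it out: the 8 log2 fold changes kept their sign, with 7 genes then called lower and 1 higher, while the share of all genes called lower in that fit was 35.9%, and higher 37.3%. The knockout libraries left in that fit are alike, and the adjusted p-values of the 8 genes (edgeR quasi-likelihood test) were far smaller. For ASNS it was 1.99e-63, against 4.50e-08 with all 5 libraries. These smaller values do not show stronger evidence.

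The neighbouring pathway and the ATF4 arm were set beside the 8 enzymes from lists chosen with results of these data known. Among all genes tested, 29.8% were called lower and 30.2% higher. Of 7 tested genes of serine and glycine synthesis, 6 fell and 1 rose, with a median log2 fold change of -0.80. PHGDH, the first enzyme of serine synthesis, was at -1.50 ± 0.09, and SHMT1, the cytosolic enzyme that interconverts serine and glycine, was the member that rose (0.59 ± 0.10). Of 9 tested genes of the ATF4 arm, 8 fell and none rose, with a median of -1.62. TRIB3, which had the smallest adjusted p of that list, was at -3.90 ± 0.11, and the C/EBP partner genes CEBPB and CEBPG were at -2.62 ± 0.22 and -1.62 ± 0.12. EIF2AK4, which encodes the kinase GCN2, was at 68.9 ± 3.04 CPM in the knockout and 73.4 ± 0.839 CPM in wild type and did not pass (-0.09 ± 0.09, adjusted p = 0.395). ATF4 itself was not analysed here.

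Genes with the profile nearest to each enzyme were found by the Euclidean distance between log2 CPM profiles over the 5 libraries, each centred on its own mean, among 8142 genes (average log2 CPM 3 or more). Because libraries differed more between genotypes than within them, this distance largely ranks genes by how close their genotype difference is. The place of knockout replicate 2, which stood apart, also enters it. The nearest to ASNS were FYN (distance 0.0814, log2 fold change -2.11) and CDKN1A (0.124, -2.23). The nearest to CTH was PSAT1, the aminotransferase of serine synthesis (0.0210, -0.80), followed by PYGL (0.0381, -0.79). PYCR1 was nearest to ABCA3 (0.0649, -1.11) and GPX4 (0.0924, -1.08), and ALDH18A1 to GTF3C1 (0.0115, 0.48) and IMPA1 (0.0350, 0.48). GOT1 was nearest to PIGU (0.0600) and FLOT2 (0.0626), GPT2 to CYSTM1 (0.0384) and CHST11 (0.0451), GLUL to NUP188 (0.0212) and RPS19 (0.0300), and CBS to ACAP3 (0.0457) and TGFB1 (0.0480).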

How the data were processed

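Ribosome footprints were measured in 3 ZCCHC4 knockout and 2 wild-type libraries of HAP1 cells, grouped by their titles. Per the labels' protocols, lysates were digested with RNase I and footprints of 28 to 32 nt were cloned, although the molecule field names polyA RNA. Per the submitters' processing notes, Bowtie and hg38 were used; for the counting tool, annotation, strand and multiply matching reads, the sources used here give nothing. The deposited values are whole-number counts per transcript and symbol, not normalized, in a table whose header is shifted by 1 cell. Counts were fitted in R 4.3.3 with edgeR 4.0.16 (TMM, filterByExpr with a minimum count of 10, which kept 11205 of 13638 rows, quasi-likelihood test on genotype alone, with a Benjamini-Hochberg threshold of 0.05 over all tested rows). Each SE was obtained as log2 fold change over the root of the F statistic. Alternatives were other scalings and filters, DESeq2 1.42.0, each library left out, a replicate block and knockout counts thinned to wild-type depth. A count of 0 would allow up to 3 counts, at most 0.186 CPM in a knockout and 0.560 CPM in a wild-type library; no member was near this. Coordinates, coding lengths (without the stop codon) and shared windows of 28 bases came from GENCODE release 29 (GRCh38), and all 8 transcripts matched. The fit was tested on simulated counts in which few genes changed and no library stood apart. That does not test it for data such as these, where 60.0% of genes tested were called. Of the related genes and pairs first listed, some are not reported here, and list counts, medians and adjustment over pairs leave them out. The members, lists and the rule for named genes (all members, listed genes with those of smallest adjusted p first, the pairs, and the 2 nearest profiles) were chosen with earlier results of these data known. The naming did not keep to that order of adjusted p in the lists of serine and glycine synthesis, the ATF4 arm and carriers.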

Additional observations from a re-analysis of the deposited data

How the results depend on the processing

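The number of the 8 genes called lower was 6, and 5 to 7 over all alternatives, with 1 called higher in each. Every log2 fold change of the 8 kept its sign over the 13 alternatives; ASNS ranged from -2.33 to -2.07, PYCR1 from -1.36 to -1.08 and ALDH18A1 from 0.26 to 0.52. CBS did not pass in 5 alternatives and GLUL passed in 2. Of all genes tested, 29.8% were called lower and 30.2% higher. The lists outside the 8 held 4, 4, 4, 10, 7, 9 and 12 tested genes. The listed genes outside the 8 were called lower in 26 cases and higher in 15. The second count was 8 with library totals, and 8 to 17 when a library was left out (9 without wild-type replicate 1 and 8 without wild-type replicate 2); leaving a single wild-type library assumes that it varies like the knockout libraries. With library totals the split over all genes was 2391 higher and 4563 lower, against 3380 and 3341. The genotypes share replicate numbers 1 and 2 only, and same-numbered libraries did not deviate together (correlation across genes -0.07 for each number), so the numbers were not taken as pairs. With a replicate block, 5 of the 8 genes were called lower (CBS no longer passed, adjusted p = 0.0588) and 1 higher, and 3026 and 3068 of all genes. No ratio of GPT2 to GPT was computed, as GPT was not analysed here. With the knockout libraries thinned to wild-type depth, 6 of the 8 genes were called lower and 1 higher, and 3072 and 3034 of all genes; what the lower depth of the wild-type libraries limits was not tested.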

Other observations

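Carriers of these amino acids did not share a direction. Of 12 tested, 5 fell and 4 rose, with a median log2 fold change of -0.05, where 29.8% of all genes tested were called lower and 30.2% higher. SLC7A11, which imports cystine in exchange for glutamate and so gives cells a source of cysteine other than CBS and CTH, averaged 51.9 ± 2.41 CPM in the knockout and 194 ± 3.78 CPM in wild type (-1.91 ± 0.08; SD, n = 3 and n = 2). Its partner subunit SLC3A2 had a log2 fold change of 0.41 ± 0.09. SLC1A4, a carrier of neutral amino acids, and SLC38A1, a glutamine carrier, were at -0.89 ± 0.12 and -0.48 ± 0.06. The glutamine carrier SLC1A5 averaged 492 ± 83.7 CPM in the knockout and 512 ± 30.6 CPM in wild type and did not pass (adjusted p = 0.699). Without knockout replicate 2 SLC1A5 was at -0.21 and passed (adjusted p = 1.53e-06), and with library totals it was at -0.27 (adjusted p = 0.0917). The aspartate-glutamate carriers of mitochondria, SLC25A12 and SLC25A13, were both at 0.28 (SE 0.10 and 0.08). With library totals none of the 4 rises passed, and SLC38A2 had a log2 fold change of -0.03, against 0.19 with TMM.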
